A study of Mus musculus with 6 samples.

Results

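The Igf2-H19 and Kcnq1 imprinted domains lie side by side on distal mouse chromosome 7. They were followed here through 8 genes named as members of the imprinted cluster, H19, Igf2, Ins2, Ascl2, Kcnq1, Kcnq1ot1, Cdkn1c and Phlda2. The starts of the 8 genes fell in 7 of the 47875 autosomal 50 kb bins with contacts, since Igf2 and Ins2 share a bin. Contacts were read in the 60 bins from 141.5 to 144.5 Mb of the build mm10, a window that holds both domains and their flanks. The data were contact maps of 6 Hi-C libraries of mouse embryonic stem cells (strain 129), a method in which DNA segments that lie close together in the fixed nucleus are joined and the joined pairs are counted. Of these, 3 were labelled wild type (WT) and 3 Del8, with the genotype given as GFP-CTCF-Del8, a CTCF that lacks zinc finger 8. The comparison line is described as expressing GFP-CTCF in the series' design text and only as wild type in the sample labels, so it is open whether both groups carry the tag. The question was how the folding of these domains differed between cells with the mutant and cells with the intact CTCF.

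In genomic imprinting 1 parental copy of a gene is active and the other is silenced, a state set by DNA methylation of a control region. At Igf2-H19, CTCF binds the unmethylated maternal control region upstream of H19 and insulates the growth factor gene Igf2 from enhancers beyond H19, while the methylated paternal copy does not bind CTCF. In the Kcnq1 domain the control region is the promoter of the long non-coding RNA Kcnq1ot1, which is transcribed from the paternal copy inside Kcnq1 and silences its neighbours in cis. The counts do not separate the parental copies, so every value below is a sum over the maternal and the paternal chromosome. Hi-C carries no expression values, so neither the labelled cell type nor the missing zinc finger could be checked in these files.

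The members fall into these roles and places. H19 (142575530 to 142578146) is a long non-coding RNA. Igf2 (142650768 to 142666816) encodes an embryonic growth factor, and Ins2 (142678656 to 142679726) encodes an insulin. Together they spanned 3 bins, from 142550001 to 142700000, called the Igf2-H19 domain here. Ascl2 (142966822 to 142969264) encodes a transcription factor of the trophoblast, Kcnq1 (143106877 to 143427050) a potassium channel, Cdkn1c (143458339 to 143461059) the cell cycle inhibitor p57, and Phlda2 (143501545 to 143503145) a protein that restrains placental growth. Kcnq1ot1 (143213111 to 143296547) lies within the span of Kcnq1. The 12 bins from 142950001 to 143550000 are called the Kcnq1 domain. Between the domains lay a gap of 5 bins, on the centromere side a flank of 21 bins and on the telomere side a flank of 19 bins.

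RefSeq promoter sequences (GRCm38.p6, the assembly of mm10) were matched for 4 of the 8 members, and the 250 bases before a start listed there are shown. Kcnq1ot1 is shown because its promoter is the control region of its domain, and the others for comparison. The control region upstream of H19 is not among them. Capitals mark matches on either strand to the word CCAAT, to the word CCCTC that gave CTCF its name, and to the word AGGNGGC, part of the core of the CTCF motif. Matches to the last 2 words can overlap each other. Igf2 has 4 listed starts, of which the outermost are shown. The sequences are those before the start of Igf2 used here (chr7:142666817-142667066) and before its start nearest to the end of the gene (chr7:142657497-142657746), of Ascl2 (chr7:142969265-142969514), of Kcnq1ot1 (chr7:143296548-143296797) and of Phlda2 (chr7:143502525-143502774), all of the minus strand and written 5′ to 3′. The listed start of Phlda2, 143502524, lies inside the gene span given above, in the same 50 kb bin.
Igf2, first: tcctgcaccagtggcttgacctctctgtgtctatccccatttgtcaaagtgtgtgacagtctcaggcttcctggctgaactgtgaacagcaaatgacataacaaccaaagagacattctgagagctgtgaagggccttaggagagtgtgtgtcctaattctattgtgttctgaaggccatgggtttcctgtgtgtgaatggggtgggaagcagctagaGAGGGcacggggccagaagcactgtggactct
Igf2, last: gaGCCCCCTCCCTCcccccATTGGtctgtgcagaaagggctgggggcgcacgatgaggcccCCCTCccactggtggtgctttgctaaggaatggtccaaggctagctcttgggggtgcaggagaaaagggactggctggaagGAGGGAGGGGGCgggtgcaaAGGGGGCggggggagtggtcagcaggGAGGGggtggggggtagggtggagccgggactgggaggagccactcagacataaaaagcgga
Ascl2: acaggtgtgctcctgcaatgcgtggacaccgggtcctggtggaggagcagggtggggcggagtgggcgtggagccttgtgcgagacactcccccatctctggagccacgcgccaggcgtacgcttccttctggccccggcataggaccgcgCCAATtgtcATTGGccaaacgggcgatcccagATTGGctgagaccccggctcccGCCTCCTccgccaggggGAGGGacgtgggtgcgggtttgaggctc
Kcnq1ot1: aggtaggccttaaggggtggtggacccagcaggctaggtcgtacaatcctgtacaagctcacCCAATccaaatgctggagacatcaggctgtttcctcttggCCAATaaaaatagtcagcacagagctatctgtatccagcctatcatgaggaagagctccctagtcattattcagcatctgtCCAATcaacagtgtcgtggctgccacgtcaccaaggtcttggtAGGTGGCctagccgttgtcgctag
Phlda2: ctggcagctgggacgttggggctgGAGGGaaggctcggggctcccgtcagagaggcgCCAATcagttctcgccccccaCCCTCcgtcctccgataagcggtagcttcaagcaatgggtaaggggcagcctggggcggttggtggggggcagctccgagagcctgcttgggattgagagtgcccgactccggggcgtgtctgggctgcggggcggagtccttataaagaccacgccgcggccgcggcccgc

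The Kcnq1ot1 sequence held 3 CCAAT words, 1 AGGNGGC and no CCCTC. The last Igf2 start had 6 CCCTC words, 3 AGGNGGC and 1 CCAAT, whereas the first had 1 CCCTC and none of the other words. Of the Igf2 starts not shown, 1 had 8 CCCTC and 2 AGGNGGC and the other had none of the 3 words. Ascl2 had 3 CCAAT, 1 CCCTC and 1 AGGNGGC, and Phlda2 had 1 CCAAT and 2 CCCTC. Of 32851 promoter sequences of the same length, 33.8% held CCAAT, 60.5% CCCTC and 25.0% AGGNGGC. These words are descriptions of the sequence and not binding sites.

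Depth differed between the groups and within the WT group. Total contacts ranged from 24038030 in WT replicate 1 to 66266759 in Del8 replicate 1. In WT replicates 1 and 2, 37.7% and 38.0% of autosomal bins lacked most of their contacts, as did 9.31% in Del8 replicate 3, so only 27836 bins that were covered in all 6 libraries were used, and all 60 bins of the window were among them. The member bins were well covered, with 1523 to 4944 contacts per library, or 1.11 to 1.83 times the library's median usable bin. The share of contacts within 1 bin was 31.2%, 30.7% and 22.3% in WT replicates 1 to 3 against 26.4% to 26.6% in Del8. One bin in the centromere-side flank, from 141700001 to 141750000, had 0 contacts within itself and with its telomere-side neighbour in 5 libraries, and 88 and 129 in Del8 replicate 1. It was kept in the values below. Flank blocks, pair calls and the number of called window bins are also given without it, but scores of single flank bins are not. The design text calls the replicates biological and says no more of their origin, so the p-values measure the spread between these libraries.

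Insulation differed between the groups at most bins from Igf2 to Phlda2, with 2 of 3 bins called in the Igf2-H19 domain, 5 of 5 in the gap and 10 of 12 in the Kcnq1 domain. The insulation score compares the balanced contact between the 500 kb on one side of a bin and the 500 kb on the other with the mean of the chromosome, as a log2 ratio, so a higher score means more contact between the 2 sides. Of the 7 member bins, 3 rose in Del8 (Igf2/Ins2, Cdkn1c and Phlda2), 2 fell (Kcnq1 and Kcnq1ot1) and 2 did not pass the test (H19 and Ascl2). The WT and Del8 libraries did not overlap in 5 of the 7. Calls were by limma with Benjamini-Hochberg adjustment over 23117 scored autosomal bins and a threshold of 0.05. Insulation differed widely over the genome as well: 32.1% of all scored bins rose and 29.7% fell, 61.9% in all, and the libraries did not overlap in 66.8%. The share of member bins that changed was therefore near that of all bins, and what follows describes where and in which direction the members differed.

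**Figure D1:**
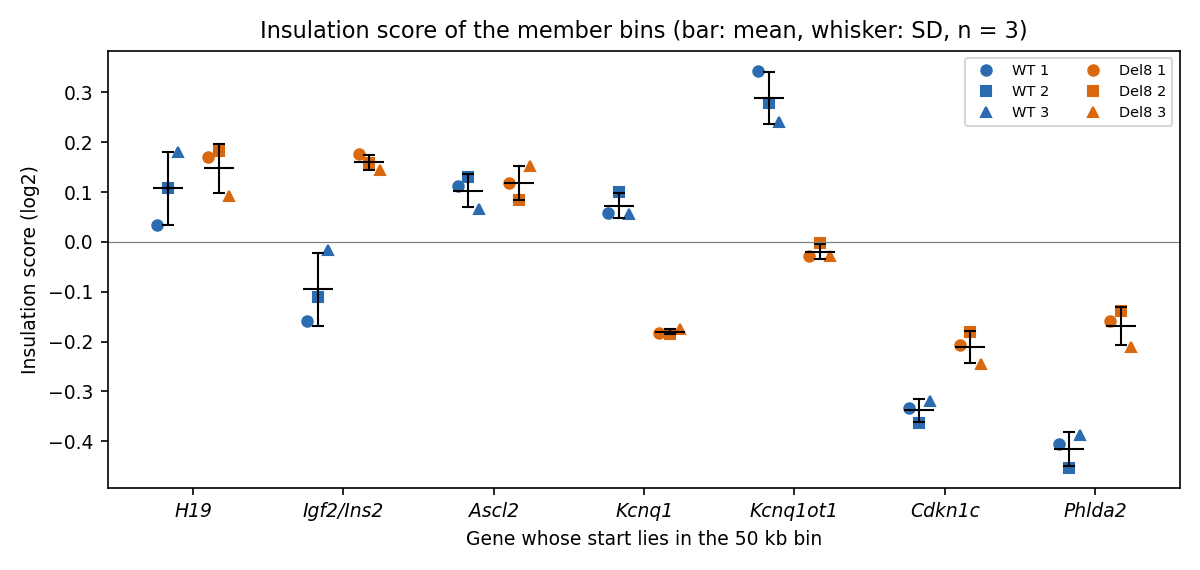
Insulation score (log2, vertical axis) of the 7 bins that hold the starts of the 8 members, for 3 WT (blue) and 3 Del8 libraries (orange), with mean and SD in black. The Igf2/Ins2, Cdkn1c and Phlda2 bins were higher in Del8, Kcnq1 and Kcnq1ot1 lower, and the groups overlapped at H19 and Ascl2.

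In the Igf2-H19 domain the score of the Igf2/Ins2 bin was -0.16, -0.11 and -0.02 in WT replicates 1 to 3 against 0.18, 0.16 and 0.14 in Del8 replicates 1 to 3. All WT values were below 0 and all Del8 values above it. The difference was 0.25 ± 0.04 (SE, limma, adjusted p = 1.7e-04, n = 3 per group), a 1.19-fold relative contact across the bin. At H19 the scores were 0.03, 0.11 and 0.18 in WT against 0.17, 0.18 and 0.09 in Del8. These overlapped, and the difference of 0.04 did not pass the test (limma, adjusted p = 0.40). The bin between H19 and Igf2 rose by 0.11 (limma, adjusted p = 0.014). The width of the square mattered at this end of the region. With a 250 kb square the H19 bin had a lower score in Del8 (-0.26, limma, adjusted p = 0.0044) and Igf2/Ins2 did not pass the test (-0.07, adjusted p = 0.25).

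All 5 bins of the gap between the domains had a higher score in Del8, by 0.20 to 0.42. The largest of these differences was in the bin from 142800001 to 142850000, with -0.13, -0.18 and -0.10 in WT against 0.30, 0.27 and 0.28 in Del8 (limma, adjusted p = 2.8e-06). The neighbouring bin holds Th, the gene of tyrosine hydroxylase, the first enzyme of catecholamine synthesis. Its score was -0.11, -0.14 and -0.09 in WT against 0.26, 0.21 and 0.26 in Del8, a difference of 0.35 (limma, adjusted p = 5.7e-06). With the 500 kb square the gap was thus a low point of the profile in WT and a high point in Del8. Neighbouring bins share most of their square, so the 5 bins are not independent of each other.

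In the Kcnq1 domain 8 of 12 bins fell and 2 rose. The Kcnq1ot1 bin, which holds its start and the promoter sequence shown above, had scores of 0.34, 0.28 and 0.24 in WT against -0.03, -0.0023 and -0.03 in Del8. The difference of -0.31 ± 0.03 (SE, limma, adjusted p = 2.1e-05) is a 0.808-fold relative contact. It was the largest fall among the member starts. The bin of the far end of Kcnq1ot1 fell further, by 0.36 (limma, adjusted p = 8.5e-06), and no bin of the 60 fell more. At the start of Kcnq1 the scores were 0.06, 0.10 and 0.06 in WT against -0.18, -0.18 and -0.17 in Del8, a difference of -0.25 ± 0.03 (SE, limma, adjusted p = 2.6e-05). At both bins the WT libraries lay above 0 and the Del8 libraries below it.

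The telomere-side end of the domain changed the other way. Phlda2 had the lowest scores of the members in WT, -0.41, -0.45 and -0.39, and -0.16, -0.14 and -0.21 in Del8, a difference of 0.25 ± 0.03 (SE, limma, adjusted p = 7.5e-05). Cdkn1c, 1 bin away, had -0.33, -0.36 and -0.32 in WT against -0.21, -0.18 and -0.24 in Del8, a difference of 0.13 ± 0.03 (SE, limma, adjusted p = 0.0031). With a 250 kb square Cdkn1c did not pass the test (0.13, limma, adjusted p = 0.092), while Phlda2 did (0.23, limma, adjusted p = 0.0064). Adjacent bins share most of their square, so these bins are not independent of each other. Ascl2, at the centromere-side end, had 0.11, 0.13 and 0.07 in WT against 0.12, 0.08 and 0.15 in Del8, which overlapped (difference 0.02, limma, adjusted p = 0.68). By mean score the WT order was Kcnq1ot1 (0.29), H19 (0.11), Ascl2 (0.10), Kcnq1 (0.07), Igf2/Ins2 (-0.10), Cdkn1c (-0.34) and Phlda2 (-0.42), and H19, Ascl2 and Kcnq1 did not differ beyond their spread. In Del8 it was Igf2/Ins2 (0.16), H19 (0.15), Ascl2 (0.12), Kcnq1ot1 (-0.02), Phlda2 (-0.17), Kcnq1 (-0.18) and Cdkn1c (-0.21), and neighbours within the first 3 and within the last 3 overlapped.

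In the centromere-side flank 11 of 21 bins fell and 0 rose (the groups did not overlap in 8), the most at Brsk2, which encodes a kinase, by 0.29 (limma, adjusted p = 1.3e-04). Brsk2 had 0.22, 0.23 and 0.21 in WT against 0.03, -0.10 and -0.13 in Del8. Its square holds the incomplete bin, as do others of this flank. Without bins like that one, limma called 13 bins of the window higher and 24 lower, against 12 and 23 with it. In the telomere-side flank 3 of 19 bins rose and 4 fell. Of all scored bins 32.1% rose and 29.7% fell, and the groups did not overlap in 66.8%. Neighbouring bins of the flanks also share most of their squares.

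The counts at the member bins stayed at 3 and 2 when any single library, or WT replicates 1 and 2 together, were left out. With a 250 kb square they were 1 and 3. They were lost under a looser bin screen, which kept every bin with 20 or more contacts per library: limma then called 0 of 36100 bins in the whole genome, with 4138 at an unadjusted p under 0.05. The cause was not tested. Under that screen the differences were -0.41 at Kcnq1 and -0.47 at Kcnq1ot1, but only 0.09 at both Igf2/Ins2 and Phlda2, and -0.03 at Cdkn1c.

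**Figure D2:**
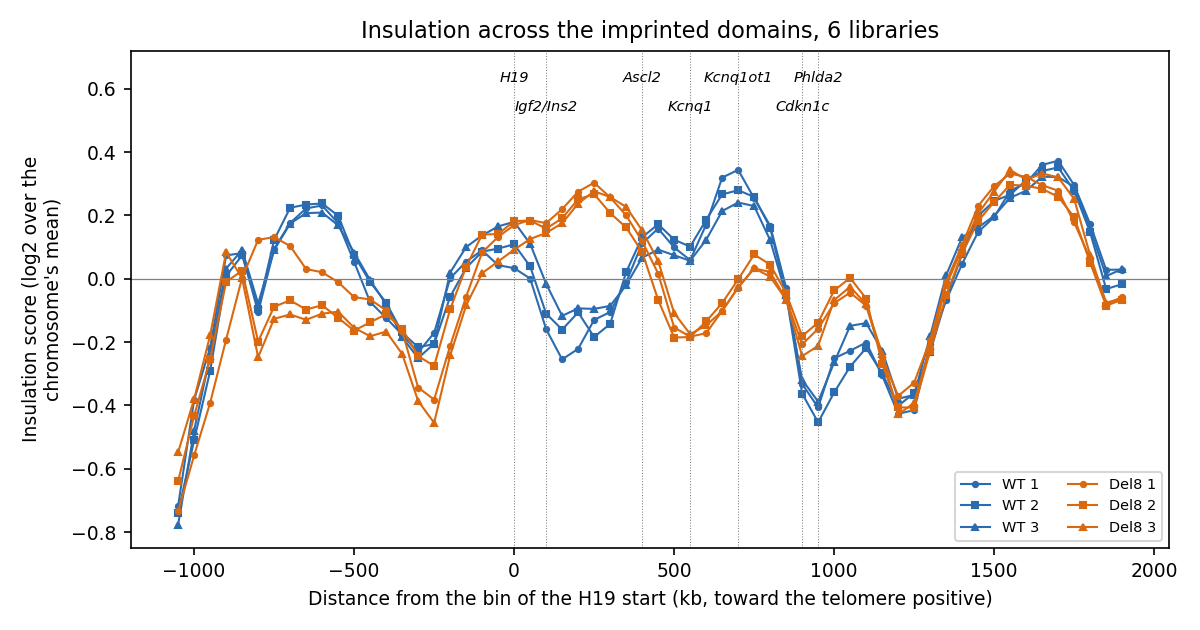
Insulation score (log2, vertical axis) of the 60 bins of the window against distance from the bin of the H19 start (kb), 1 line per library, WT in blue and Del8 in orange. WT has a low point between Igf2/Ins2 and Ascl2 and a deep one at Phlda2, whereas Del8 has a high point between Igf2/Ins2 and Ascl2 and a low point at Kcnq1.

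Some low points of the profile lay at different genes in the 2 groups and others were common to both. A boundary was taken as a local minimum of the score with a prominence of 0.2 or more, on each library's own map. All 3 WT maps had a boundary in the bin of Phlda2, and no Del8 map had one there, while Del8 replicate 3 had one in the bin of Cdkn1c. The prominence at Phlda2 was 0.21, 0.73 and 0.63 in WT replicates 1 to 3, just above the minimum in replicate 1. WT also had a boundary in the gap, at 142700001 in replicates 1 and 3 and at 142800001 in replicate 2, where no Del8 map had any. Its prominence was 0.49, 0.29 and 0.30 in WT replicates 1 to 3. Conversely Del8 had a boundary at the start of Kcnq1 in replicates 1 and 3 and 1 bin before it, at Cd81, Tssc4 and Trpm5, in replicate 2, and no WT map had one there. The prominence of this boundary was 0.22, 0.26 and 0.21, just above the minimum. A boundary common to both groups lay on the centromere side, at 142250001 in every WT map and 1 bin further, at Krtap5-4 and Ifitm10, in every Del8 map. On the telomere side another was found in both groups, but not in WT replicate 2. It lay in the bin at 143750001, which holds the lower coordinates of Mrgprg, Mrgpre and Nadsyn1 and the start of Osbpl5. Its prominence was 0.77 and 0.24 in WT replicates 1 and 3 and 0.67 and 0.70 in Del8 replicates 1 and 3. In Del8 replicate 2 it lay 1 bin further, at Dhcr7 and the start of Nadsyn1 (0.67). The actin-binding protein gene Cttn had one in WT replicate 3 and in every Del8 map. With 3 libraries per group these positions are a description, with no test.

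The 21 other genes of the cluster and its neighbours had starts in 15 bins, of which 6 rose, 4 fell and 5 did not pass the test, with a median difference of 0.01. Of all scored bins 32.1% rose and 29.7% fell, 61.9% in all, with a median difference of 0.0016. The called share of this list was near that of all bins. Th rose as described above. The bins of Slc22a18, Nap1l4 and Nctc1 are those of Cdkn1c, Phlda2 and H19, so they are counted in both lists. Beyond them, Cars rose by 0.23 and Tnfrsf26 and Tnfrsf22, receptor genes of the tumour necrosis factor family, by 0.20, and Tnfrsf23 by 0.11. Cd81, Tssc4 and Trpm5 fell by 0.25 in their common bin and Tspan32 by 0.14. Ctsd, on the centromere side, fell by 0.17 and Syt8 and Tnni2 by 0.10. Osbpl5, Dhcr7, Nadsyn1 and Mrpl23 did not pass the test, with differences of 0.01 or less. For comparison, imprinted genes elsewhere (25 genes in 24 bins, 17 of them scored) had 1 bin higher, 6 lower and 10 not called, with a median difference of -0.03. That is a smaller called share than over all scored bins, and neither list was tested as a set.

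Contact between the domains was higher in every Del8 library than in any WT library, and contact inside each domain was lower. Contacts were summed over blocks of bin pairs and divided by the mean of chromosome 7 at the same distances, so that 1 is the contact of an average pair. Inside the Kcnq1 domain (66 pairs) the observed over expected contact was 0.934, 0.936 and 0.932 in WT against 0.775, 0.772 and 0.784 in Del8. The log2 difference was -0.26, or 0.832-fold, and exceeded the spread within either group. Inside the Igf2-H19 domain (3 pairs) it was 0.914, 0.886 and 0.889 in WT against 0.844, 0.846 and 0.818 in Del8, 0.933-fold. Between the domains (36 pairs) it was 0.932, 0.857 and 0.841 in WT against 1.24, 1.15 and 1.24 in Del8, which is 1.38-fold. The domains thus met less often than the average pair at their distance in WT and more often in Del8. The counts behind the last block were 461 to 624 contacts per library in WT against 1030 to 1692 in Del8.

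The contacts of both domains with the gap and the flanks differed too. The gap had more contact with the Igf2-H19 domain in Del8, at 0.727, 0.725 and 0.763 in WT against 0.815, 0.803 and 0.829 in Del8, and less with the Kcnq1 domain, at 1.01, 1.07 and 1.03 in WT against 0.930, 0.919 and 0.920 in Del8. With the centromere-side flank the Igf2-H19 domain was lower in Del8, at 1.01, 1.07 and 1.10 in WT against 0.935, 0.946 and 0.909 in Del8. The Kcnq1 domain was higher with that flank, at 0.947, 1.00 and 0.982 in WT against 1.28, 1.27 and 1.24 in Del8, or 1.29-fold. It was also higher with the telomere-side flank, at 0.843, 0.799 and 0.830 against 0.948, 0.963 and 0.946. The Igf2-H19 domain had 1.18, 1.17 and 1.13 with the telomere-side flank in WT against 1.25, 1.29 and 1.25 in Del8.

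The groups did not overlap in any of the 9 blocks, and each gave the smallest p that 3 libraries against 3 allow (exact permutation test, two-sided, p = 0.10, and 0.10 after adjustment over the 9 blocks). Such separation was common. Among blocks of the same shape laid at every position of the autosomes, which overlap each other, the groups separated in the same direction in 35.4% of those shaped as the block between the domains, 27.9% of those as the Kcnq1 domain and 12.3% of those as the Igf2-H19 domain. The shares were 22.8% for the Igf2-H19 domain with the gap and 29.4% for the Kcnq1 domain with the gap. With the centromere-side flank they were 26.9% for the Igf2-H19 domain and 40.6% for the Kcnq1 domain, and with the telomere-side flank 25.4% and 41.6%. Set against WT replicate 3 alone, the log2 difference between the domains was 0.52, against 0.47 with all libraries, and inside the Kcnq1 domain it was -0.26 in both cases. The separation depended on the processing in 5 blocks. Under the looser bin screen the groups overlapped between the domains (log2 difference 0.25, exact permutation test, p = 0.20), in the Igf2-H19 domain with the gap and in the Kcnq1 domain with the telomere-side flank. On raw counts they overlapped inside the Igf2-H19 domain (-0.10, exact permutation test, p = 0.30). By the median over bin pairs they overlapped for the Igf2-H19 domain with the telomere-side flank (0.10, exact permutation test, p = 0.40). Without bins like the incomplete one in the flank, the log2 differences of the flank blocks it touches were -0.19 for the Igf2-H19 domain and 0.36 for the Kcnq1 domain, against -0.19 and 0.37 with it.

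**Figure D3:**
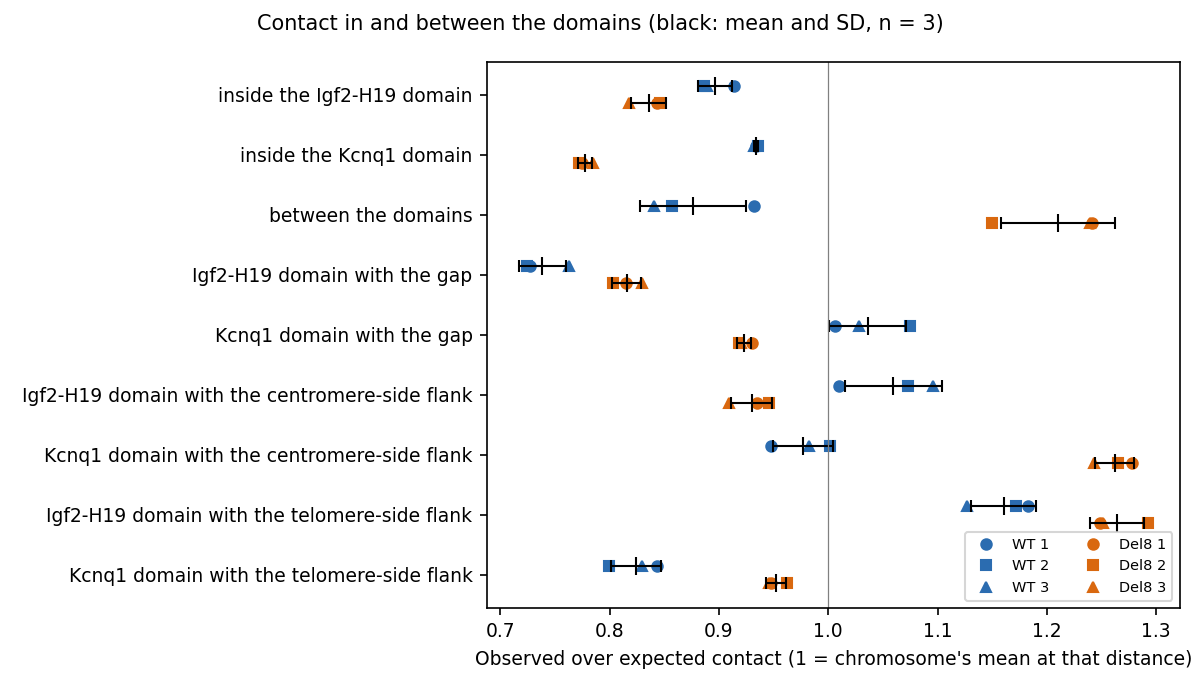
Observed over expected contact (horizontal axis, 1 is the mean of chromosome 7 at the same distance) in the 9 blocks for 3 WT (blue) and 3 Del8 libraries (orange), with mean and SD in black. Contact between the domains is below 1 in every WT library and above 1 in every Del8 library, and contact inside the Kcnq1 domain is lower in Del8.

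Seen from single members, the bin of Igf2/Ins2 had the larger difference in contact with the Kcnq1 domain. Its observed over expected contact with the 12 bins of that domain was 0.955, 0.793 and 0.793 in WT against 1.34, 1.20 and 1.22 in Del8, 1.48-fold. For H19 it was 1.00, 0.887 and 0.849 in WT against 1.21, 1.18 and 1.19 in Del8, 1.31-fold. Looking back from the Kcnq1 domain, Ascl2 had 0.728, 0.759 and 0.806 with the Igf2-H19 domain in WT against 1.24, 0.976 and 1.14 in Del8, and Cdkn1c had 1.35, 1.14 and 1.26 in WT against 1.71, 1.52 and 1.78 in Del8. Placed at every position of the autosomes, a bin and a stretch as far apart separated in the same direction in 25.4% of places for Igf2/Ins2, 25.1% for H19, 16.7% for Ascl2 and 12.5% for Cdkn1c. The groups overlapped for Kcnq1, Kcnq1ot1 and Phlda2. The WT values of the members of the Kcnq1 domain came from few contacts, 55 to 93 per library for Ascl2, 34 to 46 for Cdkn1c and 12 to 76 for the other 3. All 5 members of the Kcnq1 domain had less contact with the rest of that domain in Del8, from 0.780-fold at Ascl2 and 0.795-fold at Kcnq1 to 0.845-fold at Cdkn1c, 0.874-fold at Kcnq1ot1 and 0.881-fold at Phlda2, without overlap of the groups. Placed at every position, such a bin and stretch separated in this direction in 18.7%, 15.9%, 17.5%, 15.2% and 18.4% of places, in the same order. These values are parts of the blocks above and were not tested again.

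The direction in which a member made its contacts differed as well. Of the contacts of the Igf2/Ins2 bin within 500 kb, 35.0%, 38.3% and 38.0% lay toward the telomere in WT against 50.6%, 48.5% and 50.8% in Del8. At Ascl2 the share was lower in Del8, 42.7%, 41.8% and 46.9% against 55.7%, 55.1% and 53.8% in WT. It was higher in Del8 at Kcnq1ot1, with 48.9%, 50.8% and 50.5% in WT against 58.6%, 59.5% and 58.9% in Del8. The same held for Cdkn1c, with 35.3%, 34.3% and 35.6% in WT against 44.8%, 44.4% and 42.2% in Del8. The shares overlapped at H19, Kcnq1 and Phlda2. Of all autosomal bins with complete neighbours the groups separated in 41.3%, against 4 of the 7 member bins. Igf2/Ins2 and Ascl2 are the members on either side of the gap, and both had a larger share of contacts on the side of the gap in Del8. These shares were not tested.

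Single bin pairs located these shifts. Of the 1770 pairs in the window 935 had a mean count of 10 or more and were tested, and 198 of these had a WT mean under 10, so that they passed through the deeper Del8 libraries. By edgeR's quasi-likelihood test with Benjamini-Hochberg adjustment over 338576 pairs of the genome, 23 pairs of the window were higher in Del8 and 18 lower. In the genome 0.884% were higher and 0.834% lower, 1.72% in all. The calls at 2 of the 23 came from the incomplete flank bin and rest on Del8 replicate 1 alone, so 21 are described here. Of these, 5 had a WT mean under 10, against 0 of the 18 lower pairs. Pairs with a member bin numbered 257 tested, of which 12 were higher and 9 lower, and 3 of the 12 had a WT mean under 10. Inside the Kcnq1 domain 5 of 66 pairs were lower and 0 higher (27 at an unadjusted p under 0.05), and between the domains 6 of 32 tested were higher and 0 lower (10 at an unadjusted p under 0.05).

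**Figure D4:**
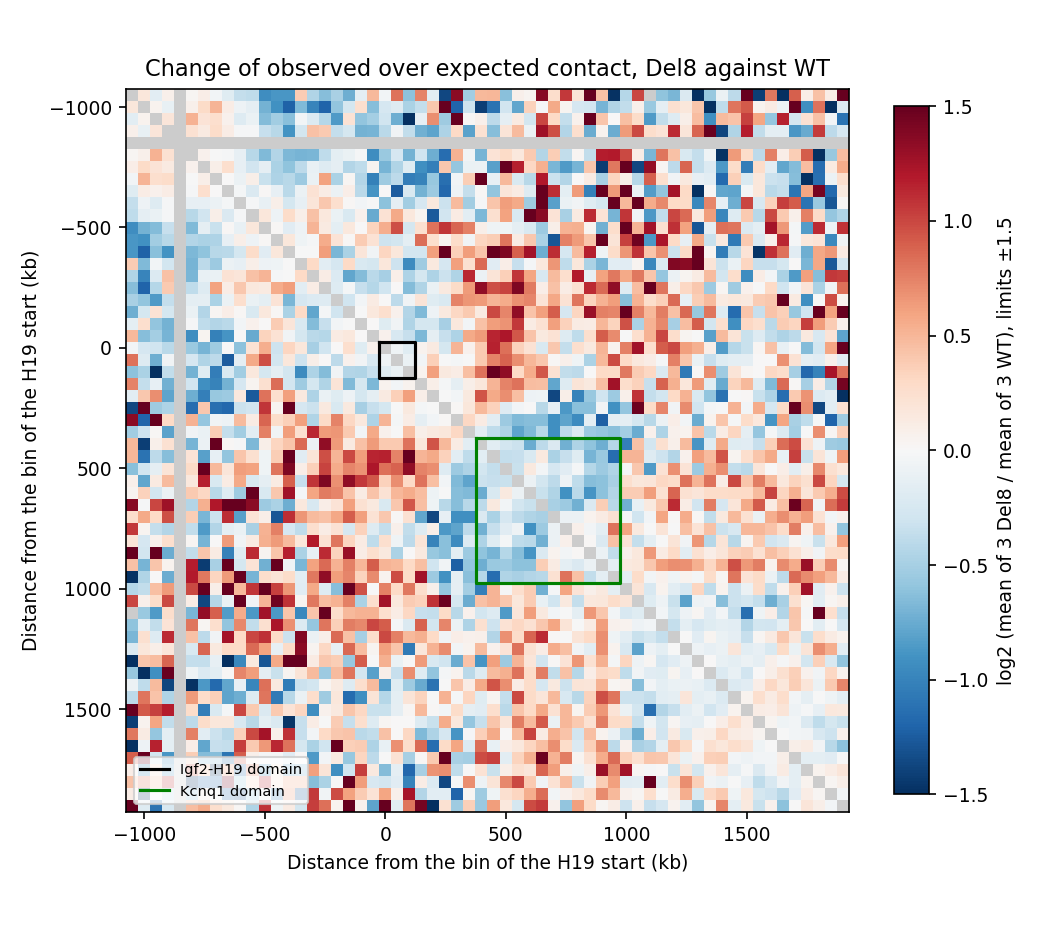
Change of observed over expected contact in the window, as log2 of the mean of 3 Del8 over the mean of 3 WT libraries (colour, red is more in Del8), with both axes in kb from the bin of the H19 start. Red covers most of the area between the boxed Igf2-H19 (black) and Kcnq1 (green) domains, with blue pixels toward the middle of the Kcnq1 domain. Blue fills much of the Kcnq1 box, and the grey stripe is the incomplete bin. Far from the diagonal single pixels rest on few contacts.

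The rises at Igf2, Ins2 and H19 were with the centromere-side end of the Kcnq1 domain. The pair of Igf2/Ins2 with Tspan32, a tetraspanin gene next to Ascl2, had 6, 12 and 13 contacts in WT against 97, 48 and 35 in Del8. Per expected contact this was 0.261, 0.451 and 0.417 in WT against 1.62, 1.16 and 0.931 in Del8, with every Del8 library above every WT library. The log2 difference was 1.76 ± 0.29 (SE, edgeR, adjusted p = 3.8e-05), the largest among pairs with a member. The next bin, of Cd81, Tssc4 and Trpm5, had 11, 18 and 19 contacts with Igf2/Ins2 in WT against 102, 65 and 48 in Del8 (log2 difference 1.38, edgeR, adjusted p = 1.6e-04). H19 met Tspan32 in 12, 13 and 18 contacts in WT against 68, 50 and 45 in Del8 (log2 difference 1.13, edgeR, adjusted p = 0.0088). H19 with Cd81, Tssc4 and Trpm5 was called too (0.84, edgeR, adjusted p = 0.039), a call lost when any 1 of the 6 libraries was left out (adjusted p of 0.058 to 0.17).

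Ascl2 and Kcnq1 were called higher with genes on the far side of H19, where the count minimum favours such calls. Of 88 tested pairs of the Kcnq1 domain with the centromere-side flank, 55 had a WT mean under 10 and entered only through their Del8 counts. Ascl2 with the bin of Krtap5-4 and Ifitm10, where the Del8 boundary lay, rose by 1.53 and Kcnq1 with the same bin by 1.45 on the log2 scale (edgeR, adjusted p = 0.0033 and 0.0035). Without WT replicate 1 the log2 difference of the Ascl2 pair was 2.35, and without WT replicate 3 it was 1.14 and not called (edgeR, adjusted p = 0.081). Kcnq1 also rose with Syt8 and Tnni2 (1.49, edgeR, adjusted p = 0.0081) and with Lsp1 and Tnnt3 (1.07, edgeR, adjusted p = 0.038), the latter a call lost whichever library was left out. Tnni2 and Tnnt3 encode troponins of fast muscle. The WT counts of these pairs were 5 to 15 contacts per library, and 3 of the 4 had a WT mean under 10, so their WT levels are imprecise. Cdkn1c gained contact with 3 bins on the telomere side. With the bin at 143750001, of Mrgprg, Mrgpre and the start of Osbpl5, it had 34, 34 and 48 contacts in WT against 144, 125 and 86 in Del8 (log2 difference 0.89, edgeR, adjusted p = 7.8e-04). With the bin at 143700001 the log2 difference was 0.80 (edgeR, adjusted p = 0.0015) and with Dhcr7, a gene of cholesterol synthesis, 0.84 (edgeR, adjusted p = 0.039, a call lost whichever library was left out).

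Of the 18 falls 8 lay between the gap and the Kcnq1 domain, where 1 pair rose, and 5 within the latter, and all 9 with a member were among these. The other 5 were in the flanks or at Mrpl23, without a member. Kcnq1ot1 lost contact with 3 bins of the gap, by 1.51 with the bin at 142750001, 1.17 with Th and 1.04 with the bin at 142900001 on the log2 scale (edgeR, adjusted p = 0.030, 0.028 and 0.047). Th with Kcnq1ot1 had 22, 23 and 23 contacts in WT against 18, 15 and 18 in the more deeply sequenced Del8 libraries. Th also lost contact with Cdkn1c, from 2.67, 1.81 and 2.01 times the expected contact in WT to 1.02, 0.763 and 0.992 in Del8 (edgeR, adjusted p = 0.0083), and with Kcnq1 (log2 difference -0.76, edgeR, adjusted p = 0.022). Kcnq1 with the bin at 142900001 had 59, 87 and 60 contacts in WT against 77, 57 and 49 in Del8 (log2 difference -0.85, edgeR, adjusted p = 0.0022). Inside the domain Phlda2 lost contact with Tspan32 (log2 difference -1.01, edgeR, adjusted p = 0.030) and Kcnq1 with the bin at 143400001 inside its own span (-0.64, edgeR, adjusted p = 0.013). Among pairs without a member the largest falls were Ap2a2 with the bin of Krtap5-2 in the flank (-1.17), Th with the bin at 143350001 (-1.07) and Muc2 with the bin of Krtap5-2 (-0.96).

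Among the 21 pairs of member bins 20 were tested, and 1 was higher and 1 lower. Igf2/Ins2 with Ascl2, across the gap, had 22, 16 and 33 contacts in WT against 92, 50 and 67 in Del8, or 0.778, 0.484 and 0.781 times the expected contact in WT against 1.24, 0.932 and 1.42 in Del8. The groups did not overlap, and the log2 difference was 0.83 ± 0.23 (SE, edgeR, adjusted p = 0.031). Kcnq1 with Cdkn1c had the highest observed over expected contact of all member pairs in WT, 3.05, 3.02 and 2.79, and 1.85, 2.07 and 1.85 in Del8 (log2 difference -0.47 ± 0.13, SE, edgeR, adjusted p = 0.033). H19 with Igf2/Ins2, the pair of the classical insulator, had 0.988, 0.935 and 0.924 in WT against 0.753, 0.809 and 0.955 in Del8, which overlapped (log2 difference -0.22, edgeR, adjusted p = 0.49). Ascl2 with Cdkn1c did not pass the test either, although its groups did not overlap, with 1.78, 1.48 and 2.02 in WT against 1.16, 0.839 and 1.17 in Del8 (edgeR, adjusted p = 0.16). H19 with Phlda2 had 3 to 11 contacts per library and was not tested.

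Single libraries and tools decided many of these pair calls. Of the 21 called pairs with a member, 6 were called whichever library was left out, and all 6 were rises: Igf2/Ins2 with Tspan32 and with the Cd81 bin, H19 with Tspan32, Kcnq1 with the Krtap5-4 bin, and Cdkn1c with the bins at 143700001 and 143750001. The pairs tested were always those that passed the count minimum over all 6 libraries, which favours rises. Leaving out a library did not remove that. Among the 6, Kcnq1 with the Krtap5-4 bin had a WT mean of 9. Only the first 2 of them were called in all 13 alternatives at 50 kb. The 12 rises with a member became 7 without Del8 replicate 1. The 9 falls became 1 without WT replicate 2, 5 without WT replicate 3, 3 without Del8 replicate 1, 3 without Del8 replicate 2 and 5 without Del8 replicate 3. Igf2/Ins2 with Ascl2 lost its call without WT replicates 1 or 2 or Del8 replicates 1 or 3 (edgeR, adjusted p up to 0.19), and Kcnq1 with Cdkn1c lost it without any library but WT replicate 3 (up to 0.18). By DESeq2 4 rises and 1 fall remained in number. Over the window the 23 rises became 12 without WT replicate 1, 9 without Del8 replicate 1, 14 without Del8 replicate 2 and 13 without Del8 replicate 3, and the 18 falls became 6 to 11 without any 1 of the 6 libraries.

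**Figure D5:**
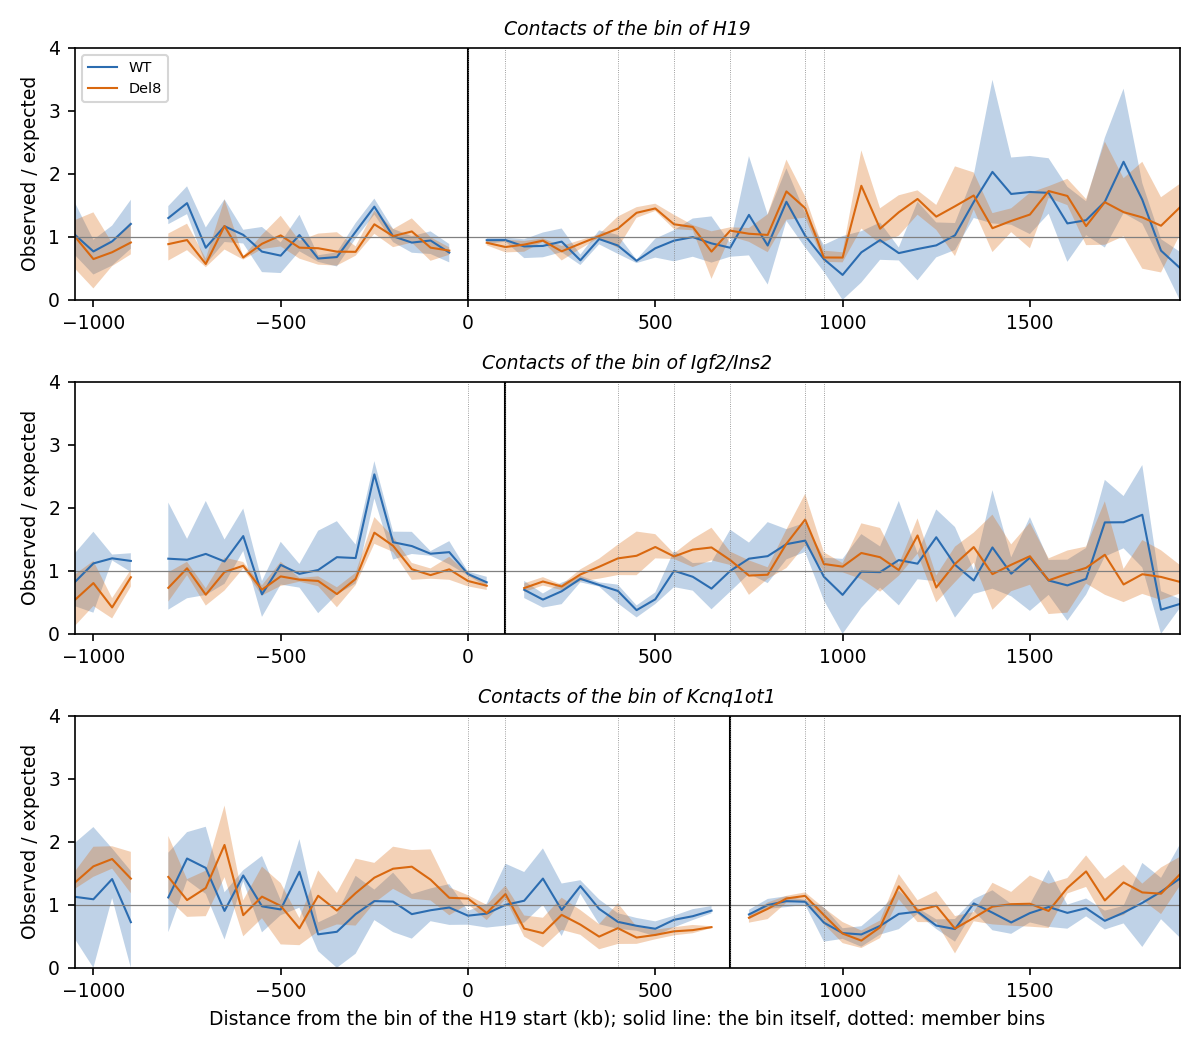
Observed over expected contact (vertical axis) of the bins of H19, Igf2/Ins2 and Kcnq1ot1 with the rest of the window, against distance from the bin of the H19 start (kb). Lines are means and bands the range of 3 WT (blue) or 3 Del8 libraries (orange), and the bands of Igf2/Ins2 separate over the centromere-side end of the Kcnq1 domain, where Tspan32 and Cd81 lie.

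The lower contact inside the Kcnq1 domain was set against 2 other imprinted domains, those of Dlk1-Meg3 on chromosome 12 and Mest on chromosome 6. These are smaller, with 6 bins and 15 pairs in Dlk1-Meg3 and 6 bins, 5 of them usable, and 10 pairs in Mest. The Kcnq1 domain has 66 pairs, so the comparison is over unlike distances. Inside Dlk1-Meg3 the observed over expected contact was 0.767, 0.728 and 0.809 in WT against 0.810, 0.834 and 0.834 in Del8. The change in the Kcnq1 domain was lower than in Dlk1-Meg3 by 0.37 on the log2 scale, without overlap of the libraries (exact permutation test, two-sided, p = 0.10, or 0.20 after adjustment over 2 comparisons). Inside Mest it was 1.14, 1.15 and 1.17 in WT against 1.03, 1.07 and 0.985 in Del8. The difference from Mest was -0.10, with overlap of the libraries (exact permutation test, p = 0.20, adjusted p = 0.20). Neither difference can pass a threshold of 0.05 with 3 libraries per group.

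For 2 members the bins with the most similar scores over the 6 libraries were looked up among 8835 scored bins with the start of a protein-coding gene on other autosomes. Likeness was the root mean square difference of the scores. Nearest to H19 were the bins of Brdt on chromosome 5 (0.02), of Defb6, Defb46 and Defb5 on chromosome 8 (0.03) and of Sgsm3 on chromosome 15 (0.04). Nearest to Kcnq1ot1 were those of Mff on chromosome 1 (0.03), Usp46 on chromosome 5 (0.04) and Fig4 on chromosome 10 (0.04). In these 3 bins the score went from 0.28, 0.31 and 0.24 in WT to -0.0035, 0.00064 and 0.01 in Del8. They were chosen by their scores in all 6 libraries, so a fall like that of Kcnq1ot1 was fixed by the choice. The likeness, searched over so many bins, is a description.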

How the data were processed

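Hi-C of 6 libraries was analysed from the contact count of each pair of 50 kb bins, not normalized, in 1 file per library that the authors deposited. Coordinates are mm10, per the submitters' processing notes. Aligner and read filters: not given in the sources used here. Contacts between chromosomes were not used here. MboI was the enzyme per the labels' protocols. A bin was usable if its coverage, scaled to the library's median usable bin, was at least 0.5 of the third highest library's and above 0.1 in every library. Each chromosome was balanced by iterative correction without the diagonal. A score needed 50% of its square usable. Starts were transcription starts where a RefSeq promoter table gave the strand and lower coordinates otherwise. Other bins of the window were named after protein-coding genes with lower coordinates in them, unless a start is mentioned. Scores were tested with limma 3.58.1 over all autosomal bins, and counts of pairs under 2 Mb apart with edgeR 4.0.16 (DESeq2 1.42.0 as an alternative), with offsets for chromosome and distance. Both were tested on simulated data. Blocks were compared by exact permutation. Members, lists and the bin screen were chosen with earlier results of these data known. All 8 members were named, with every called pair of a member bin and the 5 largest rises and falls. Replicate numbers came from the titles and were not used to pair the groups in the main tests.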

Additional observations from a re-analysis of the deposited data

How the results depend on the processing

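Alternatives were another square width, bin screen, balancing, centring, expected contact, summary, test, normalization, count minimum or bin size, fewer libraries and a replicate block. Leaving out bins like the incomplete one in the flank was added after the data were seen, and changed no direction. Of 377 values for single bins and pairs, 250 kept direction and call, 117 lost the call and 10 reversed. Of 108 block values 106 kept their direction. Reversals at H19 were -0.032 without WT replicates 1 and 2, -0.26 with a 250 kb square and -0.12 under the looser screen. Igf2/Ins2 reversed to -0.066 with the 250 kb square. Ascl2 ran from -0.0027 (without WT replicate 3) to 0.033 (without Del8 replicate 2) when single libraries were left out, with -0.0015 without Del8 replicate 3, and reversed to -0.0060 with libraries centred on their median bin, -0.10 with the 250 kb square and -0.14 under the looser screen. Under that screen Cdkn1c was -0.032, the Igf2-H19 domain with the gap -0.36 and the Kcnq1 domain with the telomere-side flank -0.0092. It left 0 of the 3 higher and 0 of the 2 lower member bins, and 0 of the 12 higher and 0 of the 23 lower window bins (limma). The 250 kb square left 1 higher member bin. Causes were not tested.

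Of the pairs in the window called higher (23), 9 to 17 remained in number without single libraries, 5 without WT replicates 1 and 2 and 5 by DESeq2. Of those called lower (18), the numbers were 6 to 11 without single libraries, 2 without WT replicates 1 and 2, 7 with a mean count of 2, 29 in 100 kb bins and 3 by DESeq2. Rises with a member bin (12) numbered 7 to 10, 3 without WT replicates 1 and 2, 20 in 100 kb bins and 4 by DESeq2. Falls (9) numbered 1 to 6, 1 without WT replicates 1 and 2, 4 with a mean count of 2, 18 in 100 kb bins and 1 by DESeq2. Without WT replicates 1 and 2, a single WT library is assumed to vary like Del8.

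Same-numbered WT and Del8 libraries did not deviate together (correlations -0.05, -0.01 and -0.10). This cannot tell whether they were prepared together, and the main tests did not pair them. With the replicate block the member bins had 3 higher and 2 lower, and the window 19 higher and 15 lower pairs. Depth limits single pairs, many of which held under 10 contacts per WT library.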
